A study of Glycine max with 10 samples.

Results

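The 5 libraries described here are the 3 labelled resistant, day 11 and the 2 labelled susceptible, day 1, out of 10 leaf libraries of soybean. They were selected on the levels of genes that are nearly on or off across the series, on which these 5 fall on one side and the other 5, labelled susceptible, day 11 and resistant, day 1, on the other. Of 37468 genes tested, 60 (0.16%) separated these 5 libraries from the other 5 by 8-fold or more in CPM, the counts of a gene scaled to a common library size. In 57 of the 60 the 5 libraries held the lower values, with a median of 0.234 CPM for their highest library, and in 3 the higher values. These values chose the libraries, so the likeness of the 5 on them is a description only. The sides cross the cultivar labels, with a resistant label on this side at day 11 and a susceptible label at day 1, so the groups are named throughout by their labels and not by a genotype read from the data. For each of the 5, RNA of 3 replicates was pooled before library preparation, so each condition had 1 library.

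The libraries labelled resistant, day 11 are assigned to the cultivar LD12-15813Ra, which carries Rag1. They held plants without aphids (control), plants with 15 biotype 1 aphids and no inducer, and plants with an inducer of 50 biotype 2 aphids followed by 15 biotype 1 aphids. The libraries labelled susceptible, day 1 are assigned to LD12-15838R and held a control and the same inducer treatment. Labelled day and labelled cultivar both differ between the groups, so the part of each in any difference cannot be told apart. Where day 11 or day 1 is given alone for these 5 libraries, it stands for the group and not for an effect of day. No condition was sampled in both groups other than control and inducer, and no batch or sequencing date was given in the sources used here.

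The soybean aphid feeds on phloem sap of soybean leaves, and Rag1 limits the growth of avirulent biotype 1 on plants that carry it. Biotype 2 is virulent on such plants. In induced susceptibility, an earlier aphid population makes the plant a better host for those that come later. Feeding aphids and the age of a leaf are both known to change which genes the leaf transcribes.

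The total of estimated counts lay between 23554226 in the susceptible day 1 control and 25665558 in the resistant day 11 inducer library. Between 40725 and 41510 genes had at least 1 count. The 10 most abundant genes took 4.64% of the counts in the resistant day 11 inducer library and 8.82% in the susceptible day 1 inducer library. The factors of TMM, which scale a library by the bulk of its genes, were likewise at their ends in these libraries, 1.09 and 0.871. The other 3 libraries lay between them, with 5.81% to 6.69% for the 10 genes and factors of 0.991 to 1.05. The gene identifiers are those of Wm82.a2.v1, and 0 of 55983 matched the reference gene table, so genes are given by identifier with no name or role. The leaf could not be checked against its markers for the same reason.

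Few genes could be called between the 2 groups. With edgeR's quasi-likelihood test on group and presence of aphids, 0 of 37468 genes (0%) passed an adjusted p of 0.05 between resistant day 11 and susceptible day 1. The unadjusted p was under 0.05 in 1019 genes, in 2729 without the resistant day 11 control, in 2839 without the susceptible day 1 control and in 667 without biotype 1 alone. EdgeR called 1 gene without the susceptible day 1 control and 1 without the resistant day 11 inducer library. DESeq2 on the same libraries called 4 of 37113 (0.0108%), all lower in resistant day 11. With no difference in any gene, a share of 0.05 of the 37468 genes would have an unadjusted p under 0.05, more than 1019. Counts at an unadjusted p, here and below, are therefore not numbers of genes that differ. The 2 residual degrees of freedom hold differences between treatments as well as between pools, and the common biological coefficient of variation was 0.235.

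The levels were compared next without a model. The groups did not overlap in TMM-scaled CPM for 5348 genes (14.3%), with 2664 (7.11%) higher and 2684 (7.16%) lower in resistant day 11. With so few libraries some genes fall without overlap under any grouping. Such numbers are therefore not numbers of genes that differ by group or by aphids. With library totals in place of TMM the split was 5241 higher and 1038 lower, so the balance of directions depends on the scaling. Where the mean over the 5 libraries reached 5 CPM, in 21859 genes, 1334 (6.1%) were higher without overlap and 1382 (6.32%) lower. Of these, 11 had group means at least 2-fold higher in resistant day 11, and 29 at least 2-fold lower. A gap of at least 2-fold between the nearest libraries of the groups was found in 0 of these genes for higher and 2 for lower.

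The 2 genes with that gap were Glyma.10G200800 and Glyma.20G057500, on chromosomes 10 and 20. Glyma.10G200800 had 8.36 CPM in the resistant day 11 control, 11.9 with biotype 1 alone and 5.87 with the inducer. In susceptible day 1 it had 46.2 in the control and 36.7 with the inducer. The lowest day 1 library therefore lay 2.99-fold above the highest day 11 library on the CPM + 0.5 scale. The log2 difference was -2.23 (standard error 0.32, edgeR unadjusted p = 0.000493, adjusted p = 1), and DESeq2 gave -2.22 (adjusted p = 2.37e-05).

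Glyma.20G057500 had between 13.7 and 15.0 CPM in the 3 libraries of resistant day 11, a narrow range over the 3 treatments. It had 31.4 in the susceptible day 1 control and 45.0 with the inducer. The log2 difference was -1.42 (standard error 0.18, edgeR unadjusted p = 0.000128, adjusted p = 1), and DESeq2 gave -1.41 (adjusted p = 0.00296). Both genes were among the 4 that DESeq2 called. The direction of both was lower in resistant day 11 under each of 13 alternative settings. They were chosen for their gap in these same libraries, so little else was possible.

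In the other direction the widest gap was 1.56-fold, in Glyma.17G072400 on chromosome 17. It had 21.0 CPM in the resistant day 11 control, 19.8 with biotype 1 alone and 36.5 with the inducer, and 9.33 and 12.5 CPM in the control and inducer libraries of susceptible day 1. Its log2 difference was 1.17 (standard error 0.29, edgeR adjusted p = 1). Glyma.11G039400 on chromosome 11 followed with a gap of 1.43-fold. It had 1.29 CPM in the resistant day 11 control but 10.2 with biotype 1 alone and 13.4 with the inducer, and 0.756 and 0.633 in the control and inducer libraries of susceptible day 1. Only the day 11 libraries with aphids stood well above the rest in this gene. Its log2 difference was 2.77 (standard error 0.92, edgeR adjusted p = 1), and single libraries set its size, with 0.77 without the susceptible day 1 inducer library, 4.25 without the resistant day 11 control and 4.21 without the susceptible day 1 control.

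**Figure D1:**
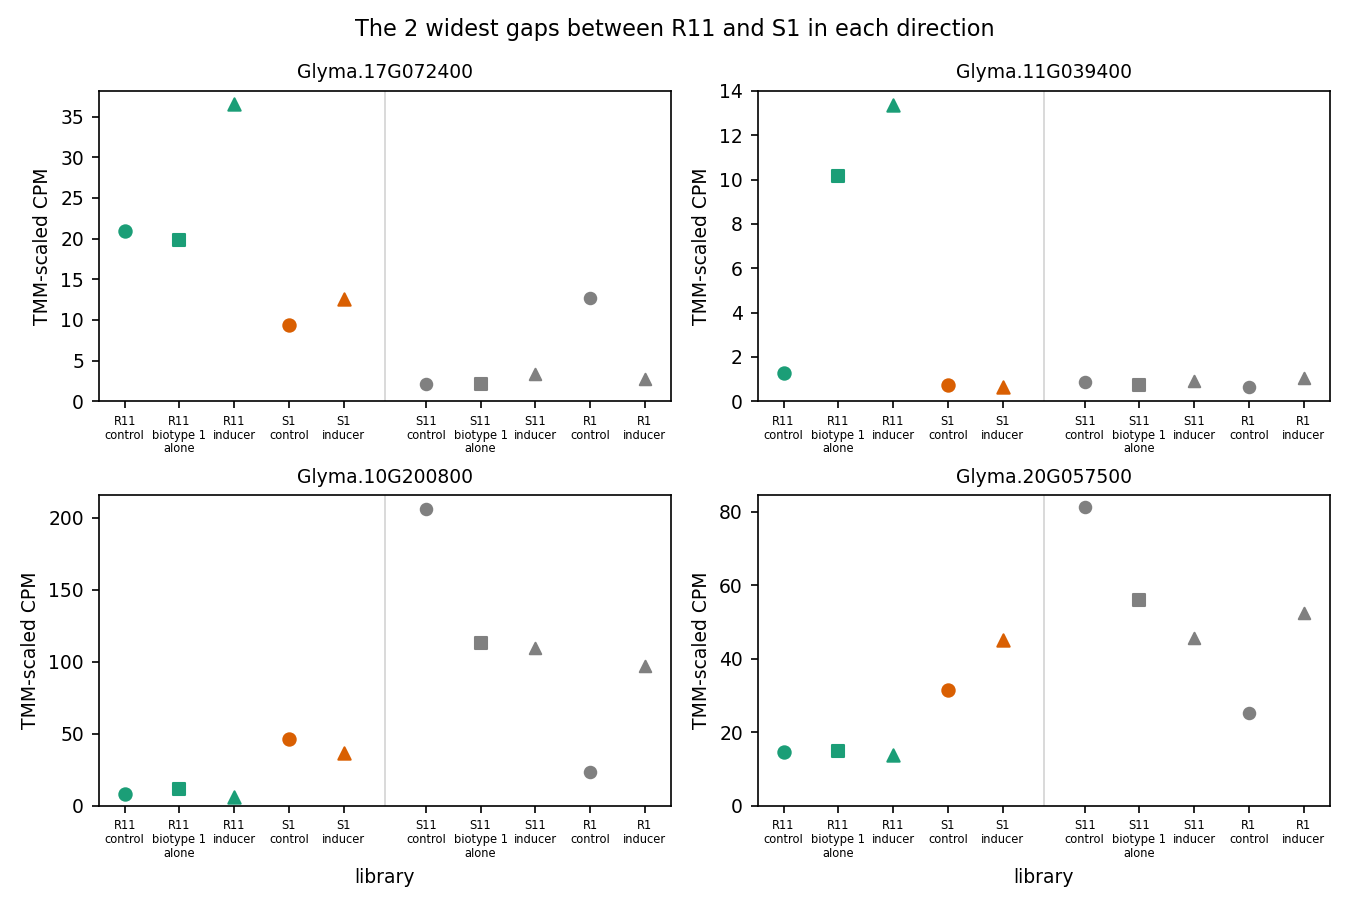
CPM in each library for the 2 genes with the widest gaps in each direction, with resistant day 11 (R11) in green, susceptible day 1 (S1) in orange and the other 5 libraries (S11 for susceptible day 11, R1 for resistant day 1) in grey; circles are controls, squares biotype 1 alone and triangles the inducer. The coloured points are scaled by TMM over the 5 libraries and the grey ones over all 10. In Glyma.10G200800 the 3 green points lie between 5.87 and 11.9 CPM and the orange ones at 36.7 and 46.2.

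The 12 genes with the widest gaps in each direction had log2 differences of 0.47 to 2.77 where resistant day 11 was higher and of -2.23 to -0.73 where it was lower. Their gaps were 1.30-fold to 1.56-fold and 1.44-fold to 2.99-fold. The 12 higher genes lay on 6 chromosomes, with at most 3 on any, and the 12 lower ones on 10 chromosomes with at most 2 on any. All of them were chosen for their gap, so these values are a description.

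Distances between single libraries were then compared. The spread of a pair was taken as the SD of its log2(CPM + 0.5) differences over genes whose mean in the pair reached 1 CPM. The most alike of the 10 pairs were the controls of the opposite groups, resistant day 11 and susceptible day 1, with an SD of 0.403 and 824 genes past 2-fold (2.73% of 30204). The next were resistant day 11 with biotype 1 alone and susceptible day 1 with the inducer, with an SD of 0.435 and 872 genes. The least alike were the control and inducer libraries of susceptible day 1, with an SD of 0.587 and 2344 genes. The 6 pairs across the groups had a median SD of 0.507 (0.403 to 0.556), and the 4 pairs inside a group a median of 0.504 (0.451 to 0.587). Pairs share libraries, so no test was made of these distances.

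**Figure D2:**
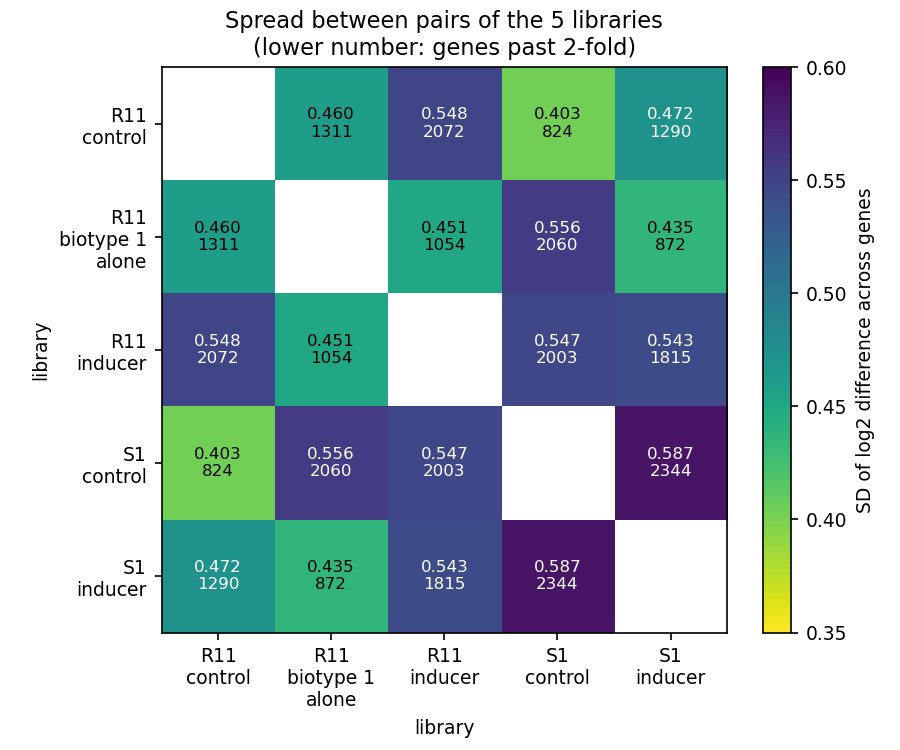
SD across genes of the log2(CPM + 0.5) difference (upper number, colour) and count of genes past 2-fold (lower number) for each pair of the 5 libraries, R11 for resistant day 11 and S1 for susceptible day 1. The lowest SD, 0.403, joins the controls of R11 and S1, and the highest, 0.587, is between the control and inducer libraries of S1.

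The same was visible in genes with an abrupt step. A gap of at least 4-fold somewhere in the order of the 5 libraries was found in 86 genes (0.23%). In 0 of the 86 did it part resistant day 11 from susceptible day 1, and in 7 (8.14%) it parted the plants with aphids from the controls. The controls were higher in 5 of the 7 and lower in 2. A split that matches no group or treatment gave the same numbers. Resistant day 11 with biotype 1 alone and the susceptible day 1 control stood together above the rest in 5 genes and below in 2. The number for aphids is therefore not read as an effect. A single library stood apart in most of the 86 genes. The susceptible day 1 control was alone in 30 genes, in 29 of them higher, with a median of 23.1 CPM against 1.14 in the other 4 libraries. The resistant day 11 inducer library was alone in 21, and in 18 of these it was lower, with a median of 3.17 CPM against 88.4. The resistant day 11 control and biotype 1 alone libraries were alone in 2 each, and the susceptible day 1 inducer library in 4.

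The difference between the groups was then read by treatment, from control pair and inducer pair, which share no library. In the controls, 224 genes (0.742% of 30204) were at least 2-fold higher and 600 (1.99%) at least 2-fold lower in resistant day 11. With the inducer, 559 of 29961 genes (1.87%) were higher and 1256 (4.19%) lower, 6.06% in all. With library totals the inducer pair gave 1323 higher and 697 lower, since its median difference moved by 0.30 on the log2 scale. Past 4-fold there were 16 higher (0.053%) and 75 lower (0.248%) in the controls, and 66 (0.22%) and 225 (0.751%) with the inducer, 0.971% in all. Each of these values compares 1 library with 1 and has no replicate check.

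Fewer genes moved past 2-fold alike in both pairs than in opposite ways. Of 687 genes past 2-fold in the controls and 1724 with the inducer, among the 29399 that passed the minimum in both, 40 went the same way, 16 higher and 24 lower. Another 164 went opposite ways, which is 23.9% of the first list and 9.51% of the second. Of these, 102 were lower in the controls and higher with the inducer. Across the 29399 genes Pearson's r between the differences of the pairs was -0.29, a description over genes that are not independent.

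**Figure D3:**
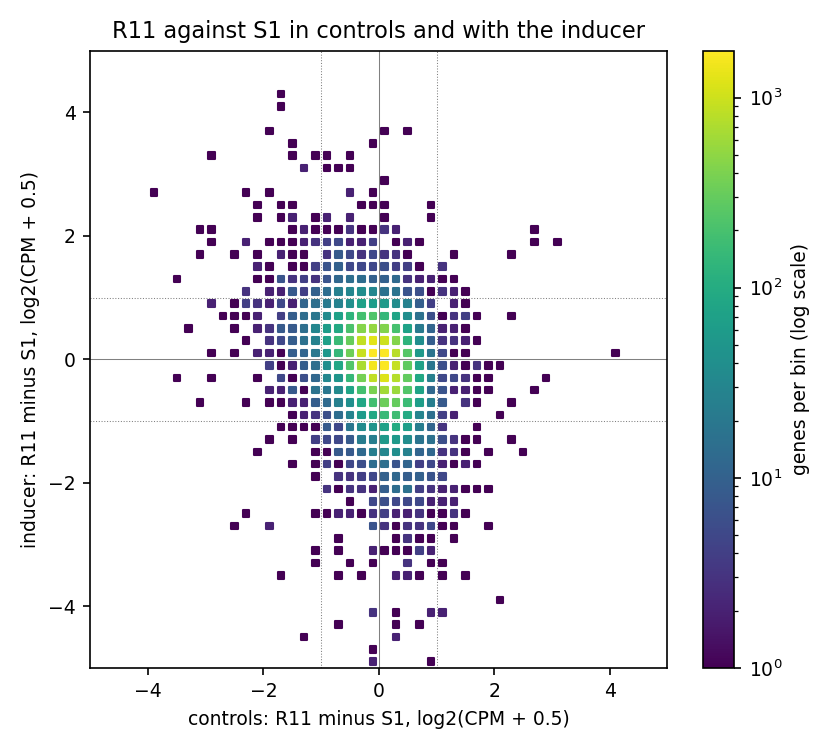
Log2(CPM + 0.5) difference of R11 (resistant day 11) minus S1 (susceptible day 1) in the controls (horizontal) and with the inducer (vertical) for 29399 genes in bins of colour by count (log scale); dotted lines mark 2-fold, and differences beyond the axes are drawn in the outermost bins. The cloud is wider along the vertical axis and tilts down to the right, with 164 genes past 2-fold in opposite directions and 40 in the same.

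The interaction of group and aphids asks whether the difference between the groups changed with infestation, with both aphid treatments of day 11 as one level. EdgeR called 0 of 37468 genes (0%), with an unadjusted p under 0.05 in 2711 and a lowest adjusted p of 0.246, on 1 residual degree of freedom. DESeq2 called 49 of 37113 (0.132%). The term was higher in 23 of them, so that resistant day 11 stood higher against susceptible day 1 with aphids than without, and lower in 26. In 45 of the 49 the control pair and the inducer pair differed in opposite directions, beside 60.9% of the 29399 genes that passed the minimum in both pairs. The genes were called for a difference between the treatments, so nothing is read from that count.

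These 49 genes were of different shapes. Of the 26 lower ones, 16 differed at least 2-fold between control and both aphid libraries at day 11 but not between control and inducer at day 1. Another 3 did so at day 1 only and 7 at both days. Of the 23 higher ones, 5 did so at day 11 only, 11 at day 1 only and 7 at both.

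Of the 49, 2 genes in each direction are given, taken after the values were seen as those with the lowest adjusted p in DESeq2 among those whose mean reached 5 CPM, the last of them, Glyma.09G236800, being 1 of 3 tied. Glyma.01G006000 had 2.95 CPM in the resistant day 11 control, 41.5 with biotype 1 alone and 35.3 with the inducer, against 9.66 and 8.19 in the control and inducer libraries of susceptible day 1. It stood high with aphids in resistant day 11 and not in susceptible day 1. The interaction was 3.93 on the log2 scale (DESeq2 adjusted p = 5.66e-05, edgeR 0.246). Glyma.03G071700 had 154 CPM in the susceptible day 1 control and between 9.94 and 13.1 in the other 4. There 1 library set the term (3.40, DESeq2 adjusted p = 6.64e-05, edgeR 0.333).

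Glyma.10G118900 had 242 CPM in the resistant day 11 control, 72.5 with biotype 1 alone and 61.6 with the inducer. In susceptible day 1 the order was the other way, with 71.5 in the control and 198 with the inducer (interaction -3.33, DESeq2 adjusted p = 8.13e-06, edgeR 0.374). Glyma.09G236800 likewise lay highest in the control at day 11 and higher with the inducer than in the control at day 1, with 87.1, 14.2 and 18.3 CPM in the control, biotype 1 and inducer libraries of resistant day 11 and 32.3 and 62.6 in the control and inducer libraries of susceptible day 1 (interaction -3.38, DESeq2 adjusted p = 5.66e-05, edgeR 0.333).

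**Figure D4:**
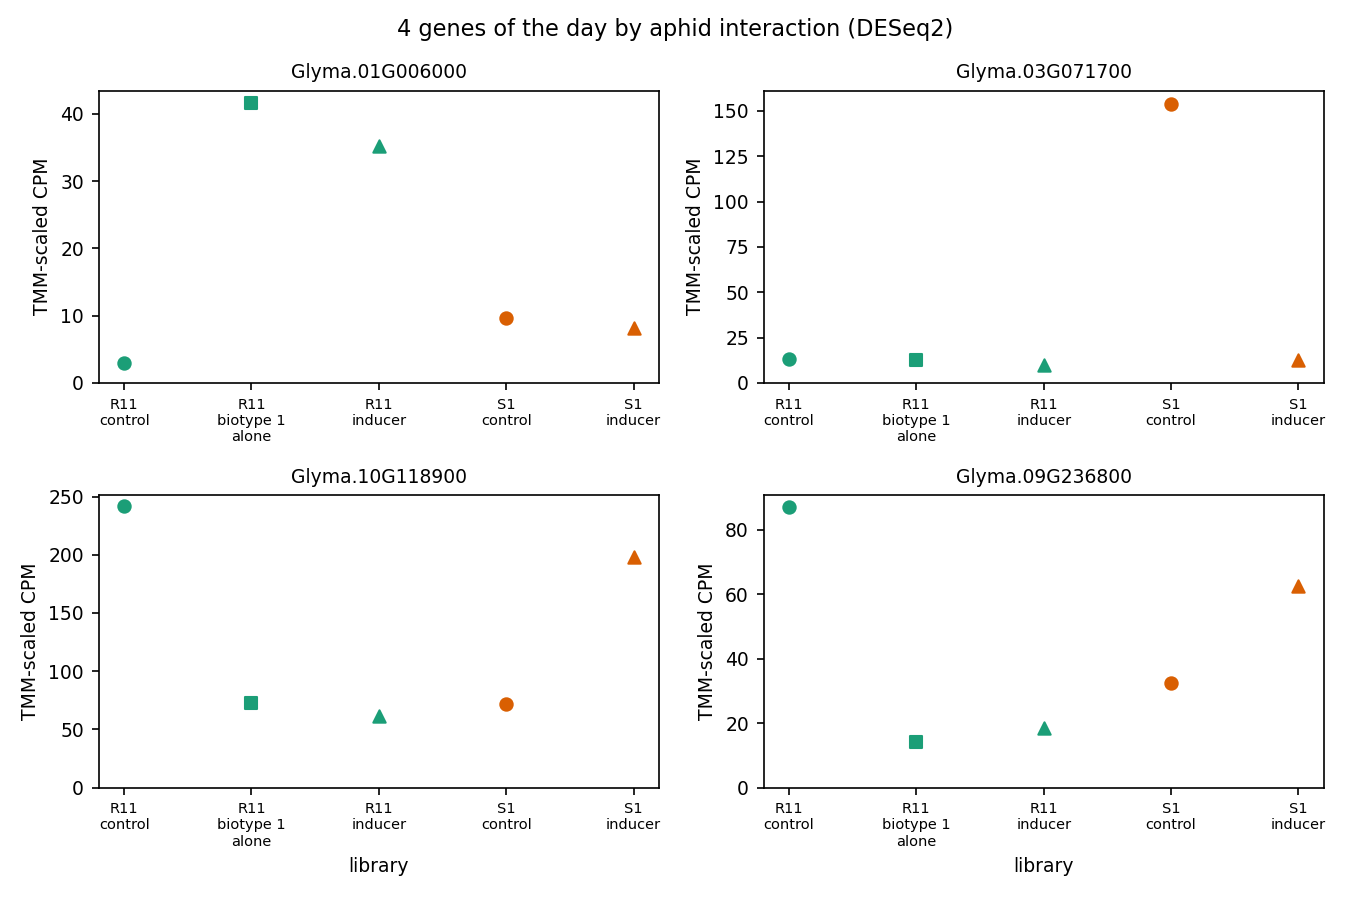
TMM-scaled CPM in each of the 5 libraries for 4 genes of the interaction by DESeq2, R11 (resistant day 11) in green and S1 (susceptible day 1) in orange, circles for controls, squares for biotype 1 alone and triangles for the inducer. Glyma.01G006000 lies at 35.3 and 41.5 CPM in R11 with aphids and at or under 9.66 elsewhere, and Glyma.03G071700 at 154 in the S1 control and at or under 13.1 elsewhere.

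With the group held in the model, plants with aphids were compared with the controls over the same 5 libraries. EdgeR called 8 of 37468 genes (0.0214%), 1 higher and 7 lower with aphids, and 3648 had an unadjusted p under 0.05. DESeq2 called 641 (1.73%), 149 higher and 492 lower. The groups did not overlap for 10900 genes (29.1%), with 5095 (13.6%) higher and 5805 (15.5%) lower with aphids, against 5348 (14.3%) between resistant day 11 and susceptible day 1. EdgeR's count fell to 0 without the resistant day 11 control, without biotype 1 alone or without the susceptible day 1 inducer library, where 4309, 2424 and 3044 genes had an unadjusted p under 0.05. It was 474 without the resistant day 11 inducer library and 52 without the susceptible day 1 control.

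The gene with the lowest p, Glyma.02G228100 on chromosome 2, had 146 CPM in the resistant day 11 control and 85.1 in the susceptible day 1 control. With aphids it had 3.50 with biotype 1 alone, 1.90 with the inducer at day 11 and 1.90 with the inducer at day 1. The aphid libraries were low in both groups, and the gene's log2 difference was -5.65 (standard error 0.30, 50.1-fold, edgeR adjusted p = 0.0169). Glyma.02G125600 on the same chromosome had a log2 difference of -2.44 (standard error 0.18, edgeR adjusted p = 0.0462). It had 23.6 and 73.2 CPM in the controls of day 11 and day 1, and 4.71, 5.33 and 11.2 with biotype 1 alone, the day 11 inducer and the day 1 inducer. This gene was also among the 4 that DESeq2 called lower in resistant day 11, with both day 1 values above their day 11 counterparts.

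The 1 gene that rose, Glyma.07G258100 on chromosome 7, had 8.86 and 5.33 CPM in the controls of day 11 and day 1. With aphids it had 39.9 with biotype 1 alone, 48.3 with the day 11 inducer and 32.7 with the day 1 inducer. The log2 difference was 2.44 (standard error 0.20, edgeR adjusted p = 0.0462). Of the 7 lower genes, 6 reached a mean of 5 CPM, and they had 17.2 to 146 CPM in the controls and 1.90 to 19.6 with aphids, log2 differences of -5.65 to -1.78. The seventh had 12.0 and 3.95 CPM in the controls and no count in the 3 libraries with aphids. Its fitted fold change is therefore no measure of its size. In susceptible day 11 the same gene had 0 CPM in the control and with biotype 1 alone, but 55.2 with the inducer. It had 77.5 and 23.4 CPM in the control and inducer libraries of resistant day 1 (scaled over all 10 libraries).

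**Figure D5:**
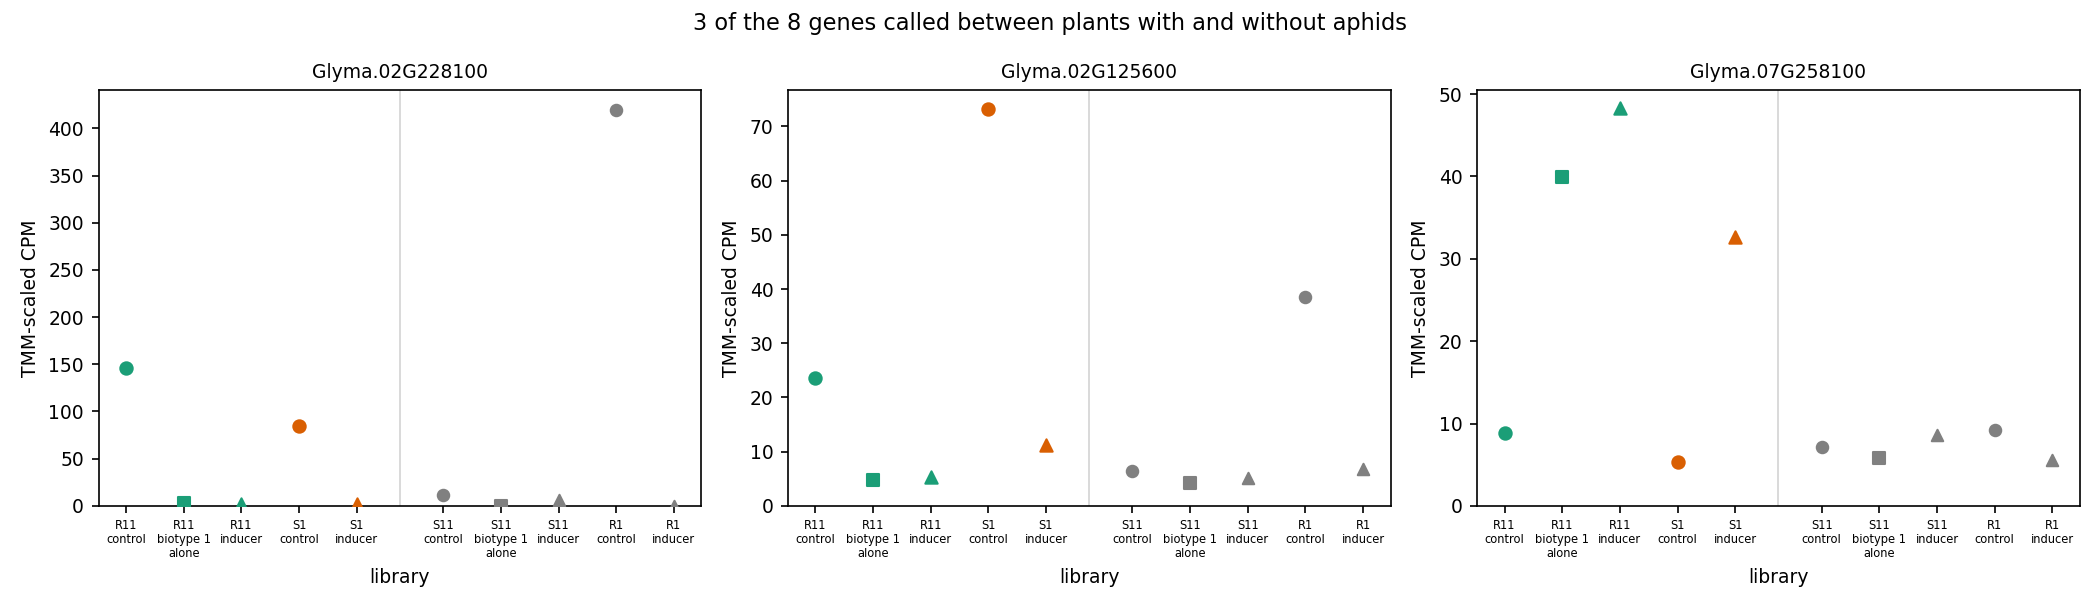
CPM in each library for 3 of the 8 genes called between plants with and without aphids, with R11 (resistant day 11) in green, S1 (susceptible day 1) in orange, scaled by TMM over the 5 libraries, and the other 5 libraries (S11 for susceptible day 11, R1 for resistant day 1) in grey, scaled over all 10. In Glyma.02G228100 the green and orange circles (controls) lie at 146 and 85.1 CPM and the squares and triangles (aphids) at or under 3.50.

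The aphid differences of the 2 groups were set beside each other over 30209 genes whose mean reached 1 CPM. Inducer against control moved 2087 genes past 2-fold in resistant day 11 and 2292 in susceptible day 1. Of these, 95 were higher and 246 lower in both, and 204 went opposite ways. Pearson's r over genes was 0.10 between these differences, which share no library. Biotype 1 alone against control in resistant day 11 moved 1280 genes, of which 118 were also higher and 342 also lower with the inducer at day 1, with 53 opposite (r = 0.34 over genes).

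The other 5 libraries, susceptible day 11 and resistant day 1, gave values that the choice of genes had not used. The same model called 0 genes between those 2 groups with edgeR (432 at an unadjusted p under 0.05), and 0 without the resistant day 1 control (649). The test of the difference between the 2 sides called 0 genes (833 at an unadjusted p under 0.05). Of the 12 genes with the widest gaps in each direction, 3 of the higher and 1 of the lower had the same sign there, and 5 and 6 without the resistant day 1 control, beside 50.4% of all 21859 genes at that level. In 0 of the 24 were those groups apart in the same direction. The share over all genes is not given here, so nothing is read from that count. For levels, in 9 of the 12 lower genes, 4 of the other 5 libraries (the resistant day 1 control aside) lay above all 5 described here, beside 11.8% of all genes at that level. In 5 of the 12 higher genes the same 4 libraries lay below all 5, beside 15.7% of all genes. The libraries were chosen on genes that part the 2 sides, and the 24 genes for their gaps. Nothing is therefore read from these counts of levels. The resistant day 1 control lay within the range of the 5 in 6 of the 12 higher genes, beside 43.6% of all genes at that level. Among all 2586 genes at that level with those 4 libraries above, it did so in 1197, beside 6 of the 9 lower genes. Glyma.10G200800 was 1 of the 6, with 206 CPM in the susceptible day 11 control, 113 with biotype 1 alone, 109.8 with the inducer, and 97.1 with the inducer in resistant day 1, against 23.8 in the resistant day 1 control (scaled over all 10 libraries).

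For aphids, edgeR called 0 genes in those 5 libraries (3326 at an unadjusted p under 0.05) and 5 (0.0133%), all lower, without the resistant day 1 control. Of the 7 genes called above whose mean reached 5 CPM, 6 had the same sign there and 5 without the resistant day 1 control, beside 55.7% and 55.8% of all genes at that level. The remaining called gene had the opposite sign in both fits. A shared sign takes no account of size. Glyma.02G125600 had 38.5 and 6.82 CPM in the control and inducer libraries of resistant day 1 (scaled over all 10 libraries). In susceptible day 11 it had 6.46 in the control, 4.27 with biotype 1 alone and 5.11 with the inducer. The share of all genes apart there is not given, so nothing is read from the next count. In 2 of the 8 the groups were also apart there in the same direction. Glyma.02G228100 was 1 of them, with 11.4 and 419 CPM in the controls of susceptible day 11 and resistant day 1, and 0.264, 5.70 and 0.292 in susceptible day 11 with biotype 1 alone, susceptible day 11 with the inducer and resistant day 1 with the inducer (scaled over all 10 libraries). Glyma.07G258100 lay between 5.54 and 9.16 CPM in all 5, with no step at infestation. In bulk leaf RNA, fewer cells of a type and less RNA per cell cannot be told apart.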

How the data were processed

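Leaf RNA was sequenced as 75-cycle reads from stranded libraries. Per the submitters' notes, trimming was done with Trimmomatic 0.36. The authors deposited estimated counts made by Salmon 0.9.1 on Wm82.a2.v1 primary transcripts, not scaled for size or length. Salmon's strand and bias options were not given in the sources used here. Salmon divides reads that fit several transcripts, so values of near-identical copies are uncertain. Between 46.0% and 47.4% of the values of the 5 libraries were not whole, and all were rounded. Genes over 0.5 CPM in at least 1 of the 10 libraries were kept. The limit of 3 counts was 0.117 to 0.127 CPM, which covers counting error only.

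The models were fitted in R 4.3.3. EdgeR 4.0.16 gave the main test (robust quasi-likelihood, TMM, p-values adjusted over all genes tested by Benjamini-Hochberg), with DESeq2 1.42.0 as an alternative. The edgeR tests were checked on simulated data. Standard errors came from the F statistic. Values of pairs were log2(CPM + 0.5). P-values of the main model rest on the spread left after group and presence of aphids. That spread holds biotype 1 alone against the inducer at day 11 and any group difference that changes with aphids. Both are mixed with differences between pools, since each condition had 1 library. Figures used matplotlib 3.10.9.

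The libraries and the rules were chosen with earlier results of these data known. Of the 12 genes in each direction by the widest gap (mean of at least 5 CPM), and of the most changed called genes for aphids, 2 at most in each direction are named, since no table paired identifiers with names. The planned gene lists, marker check and promoter motifs needed such a table and were not run. Alternatives covered tool, scaling, filter, model, pseudocount and each library left out.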

Additional observations from a re-analysis of the deposited data

Results flagged for a closer look

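The difference between resistant day 11 and susceptible day 1 was not the same with and without aphids for 49 genes by DESeq2's interaction term, while edgeR's test of the same term called 0 (2711 at an unadjusted p under 0.05). The 4 genes named for it had terms of 3.93 (Glyma.01G006000), 3.40 (Glyma.03G071700), -3.33 (Glyma.10G118900) and -3.38 (Glyma.09G236800) on the log2 scale. The term rests on 1 control library in each group, and in Glyma.03G071700 on the susceptible day 1 control alone. No group held 4 or more libraries, so no search for single libraries far from their group was made.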

How the results depend on the processing

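Between resistant day 11 and susceptible day 1, edgeR called 0 genes under library totals, RLE factors, both other filters, group alone, 3 treatments and all 10 libraries, DESeq2 called 4, and leaving out each library gave 0 to 1. For aphids edgeR's 8 became 81 with library totals, 164 with no filter, 1 with a filter of 2 libraries and 0 to 474 with a library left out, and 6 with RLE factors, and DESeq2 called 641. For the interaction edgeR called 0 under all 4 other settings and DESeq2 49. Aphids in the other 5 libraries gave 5 without the resistant day 1 control. A pseudocount of 2 in place of 0.5 gave 429 genes past 2-fold in the control pair, 1153 in the inducer pair, 14 in the same and 80 in opposite directions. The controls stayed the most alike pair in 4 other settings chosen after seeing the data (SD 0.326 to 0.453), and r of the pairs lay between -0.32 and -0.25. None of the 11 genes named changed direction under the settings run for it, which for the 4 of the interaction were DESeq2, both scalings and both filters (leaving out a library would leave no residual degree of freedom). The named genes were chosen on these same libraries, so an unchanged direction is no independent check. The labels give no replicate numbers to pair. With treatment as a term of 3 levels, which sets control beside control and inducer beside inducer, edgeR called 0 genes between the groups, with 672 at an unadjusted p under 0.05.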
